A study of Rattus norvegicus with 12 samples.

Results

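Rat sciatic nerve stumps held in a verteporfin-loaded 4:2 conduit (VP4:2, 3 samples) were compared with stumps held in a 4:4 conduit without the drug (CC4:4, 3 samples), which makes 6 of the 12 samples of the series. The conduits are truncated cones that confine the cut nerve end, and the series asks how confinement acts on nerve stumps and on pain, with verteporfin added to test the part played by YAP. The other 2 groups are the unloaded 4:2 conduit (CC4:2, 3 samples) and controls (3 samples), whose treatment is not described in the labels used here. VP4:2 and CC4:4 differ in the conduit shape and in the drug at once, so the contributions of shape and drug cannot be told apart in this comparison. CC4:2 shares the shape with VP4:2 and the lack of drug with CC4:4, and its values are given beside the results. The dose of verteporfin, the time after surgery, the strain, the age and whether each stump came from its own animal are not given in the sources used here, so a p-value here speaks only of how these samples vary, and that variation could be technical. All genes of the table were compared: 15712 of 30562 passed a filter on low counts.

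YAP and its paralogue TAZ (gene Wwtr1) are transcriptional co-activators that enter the nucleus when cells are under tension or spread out, bind TEAD factors and raise genes such as Ccn1, Ccn2 and Ankrd1. Verteporfin is a porphyrin photosensitiser that also disturbs the binding of YAP to TEAD. In an injured peripheral nerve, neutrophils, monocytes, macrophages and lymphocytes enter the stump, while Schwann cells leave the myelinating state and can return to it under Egr2 and Sox10, with YAP, TAZ and Tead1 known as further regulators of peripheral myelin genes.

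Promoters of 6 genes are shown as examples from families reported below: 2 listed YAP/TAZ-TEAD targets, 3 CXC chemokines that were far lower in VP4:2, and the Hedgehog receptor Ptch1. Each is the 250 bases before the RefSeq start site (rat build GRCr8), 5′ to 3′, and capitals mark the motif named.
Ccn2: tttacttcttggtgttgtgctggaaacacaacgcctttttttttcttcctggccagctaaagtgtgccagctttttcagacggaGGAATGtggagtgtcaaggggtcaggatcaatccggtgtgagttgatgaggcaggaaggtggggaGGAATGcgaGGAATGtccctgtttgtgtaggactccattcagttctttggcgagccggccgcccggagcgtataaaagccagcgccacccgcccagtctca
Nuak2: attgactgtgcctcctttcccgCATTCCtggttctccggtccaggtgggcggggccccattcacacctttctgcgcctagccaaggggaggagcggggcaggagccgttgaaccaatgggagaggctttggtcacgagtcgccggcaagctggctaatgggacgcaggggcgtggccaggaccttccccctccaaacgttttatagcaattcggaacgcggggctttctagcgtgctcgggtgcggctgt
Cxcl1: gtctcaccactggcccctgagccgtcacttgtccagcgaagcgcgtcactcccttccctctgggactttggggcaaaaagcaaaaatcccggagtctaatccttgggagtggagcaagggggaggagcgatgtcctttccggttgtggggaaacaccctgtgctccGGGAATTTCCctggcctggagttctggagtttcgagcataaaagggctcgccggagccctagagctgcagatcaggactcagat
Cxcl2: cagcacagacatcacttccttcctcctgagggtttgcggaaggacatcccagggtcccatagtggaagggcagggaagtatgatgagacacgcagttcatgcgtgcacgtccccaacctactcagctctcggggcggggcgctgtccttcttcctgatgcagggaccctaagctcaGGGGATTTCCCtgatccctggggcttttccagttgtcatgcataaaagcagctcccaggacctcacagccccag
Cxcl6: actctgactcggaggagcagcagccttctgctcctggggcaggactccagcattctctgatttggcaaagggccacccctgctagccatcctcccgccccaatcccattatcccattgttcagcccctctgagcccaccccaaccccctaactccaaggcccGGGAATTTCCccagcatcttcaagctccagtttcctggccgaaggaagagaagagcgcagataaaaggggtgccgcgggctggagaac
Ptch1: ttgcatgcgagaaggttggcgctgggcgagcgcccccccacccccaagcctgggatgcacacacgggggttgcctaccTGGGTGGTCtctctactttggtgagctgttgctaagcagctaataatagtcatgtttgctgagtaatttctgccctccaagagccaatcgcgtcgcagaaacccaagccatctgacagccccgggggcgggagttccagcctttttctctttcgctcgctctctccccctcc
Their positions are chr1:22624615-22624864, minus strand for Ccn2, chr13:46305756-46306005, plus strand for Nuak2, chr14:17479322-17479571, minus strand for Cxcl1, chr14:17467256-17467505, minus strand for Cxcl2, chr14:17596418-17596667, minus strand for Cxcl6, and chr17:1555321-1555570, plus strand for Ptch1. In Ccn2 and Nuak2 the capitals are the TEAD core GGAATG, searched on both strands, which occurs 3 times in Ccn2 and once in Nuak2, there as its reverse complement. Of the 22 listed targets, 15 had a promoter in the RefSeq table and 5 of those held the core (Amotl2, Ccn1, Ccn2, Nuak2 and Ptpn14), against 12.1% of 33469 rat promoters. In the 3 chemokines the capitals are the kappaB motif, with 2 overlapping matches in Cxcl2; 7 of the 15 matched cytokine and chemokine genes held it, against 4.24% of all promoters. In Ptch1 they are the GLI motif GACCACCCA, here as its reverse complement, which 1 of 8 matched Hedgehog genes and 0.338% of all promoters held. The AP-1 motif was searched as well, and 0 of 6 matched giant cell and osteoclast-like genes held it, against 6.34% of all promoters. A listed gene was counted if any of its promoters held the motif, while the shares are over single promoters. The 2 measures are therefore unlike and were not compared by a test. These matches describe letters in the window and were not tested as sites.

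The 6 libraries held 16118778 to 17336875 counts and 17574 to 17984 detected genes. Levels are given as CPM, counts scaled to library size with TMM factors. On the main axis of variation over all 12 samples (58.4% of the variance), VP4:2 stood at 28.2 to 47.9 and CC4:4 at -93 to -55.1, with CC4:2 at 84.4 to 122.4. Schwann cell markers (Sox10, S100b), macrophage markers (Cd68, Csf1r) and fibroblast markers (Pdgfra, Dcn) were detected in each of the 6 libraries. Skeletal muscle genes summed to 266 to 8360 CPM in VP4:2 and 294 to 3600 CPM in CC4:4, lowest in replicate 3 of each group; none of 11 passed the edgeR test (0 at an unadjusted p under 0.05), and their part in the results was not tested. In bulk tissue, fewer cells of a type and less RNA per cell cannot be told apart.

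Between VP4:2 and CC4:4, 1762 genes differed (11.2% of those tested; edgeR quasi-likelihood test, Benjamini-Hochberg adjusted p under 0.05), of which 896 were higher in VP4:2 (5.7%) and 866 were lower (5.51%). At least 2-fold changes made up 565 of the rises and 557 of the falls, and 1757 of the called genes had no overlap between the groups' samples, as had 43.5% of all tested genes. The median log2 fold change over all tested genes was -0.01. The genes with the smallest p included falls in the innate immune and complement genes Cfi, Csf3r, Cxcl2 and S100a9, as the plot of fold change against p shows.

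**Figure D1:**
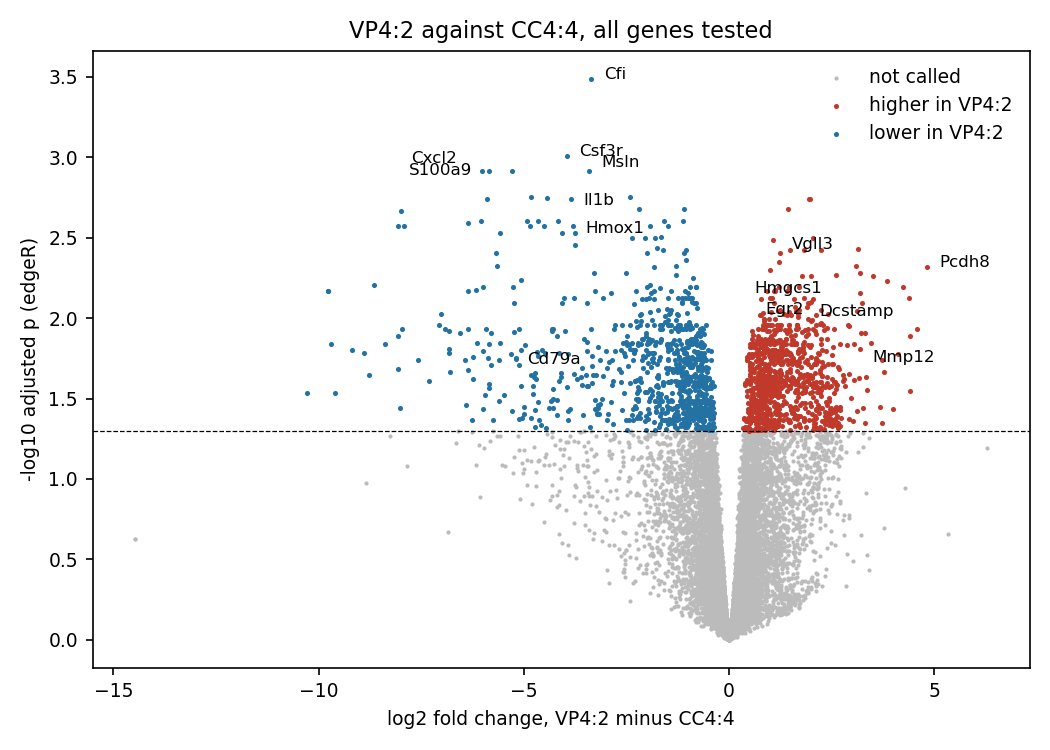
Each point is 1 of 15712 tested genes, with its log2 fold change (VP4:2 minus CC4:4) on the x axis and -log10 of its edgeR adjusted p on the y axis; the dashed line is an adjusted p of 0.05, red genes are higher and blue genes lower in VP4:2. Falls reach further than rises, and Cfi, Csf3r and Cxcl2 are among the falls with the smallest p.

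The number of calls was sensitive to single libraries. Without 1 of the 6 libraries, between 232 (without CC4:4 replicate 2) and 1175 (without CC4:4 replicate 3) genes were called, and 194 of the 1762 calls were kept in each of the 6 cases. Without Control replicate 1, which enters the shared estimate of spread, 2975 were called and all 1762 were among them. Within the NovaSeq libraries (replicates 1 and 2), 29 genes were called, all lower in VP4:2, and 3106 had an unadjusted p under 0.05; replicate 3 of every group was read on DNBSEQ-T7 and gives 1 pair without a test. Genes that kept their call without each of the 6 libraries in turn are named as such below.

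**Figure D2:**
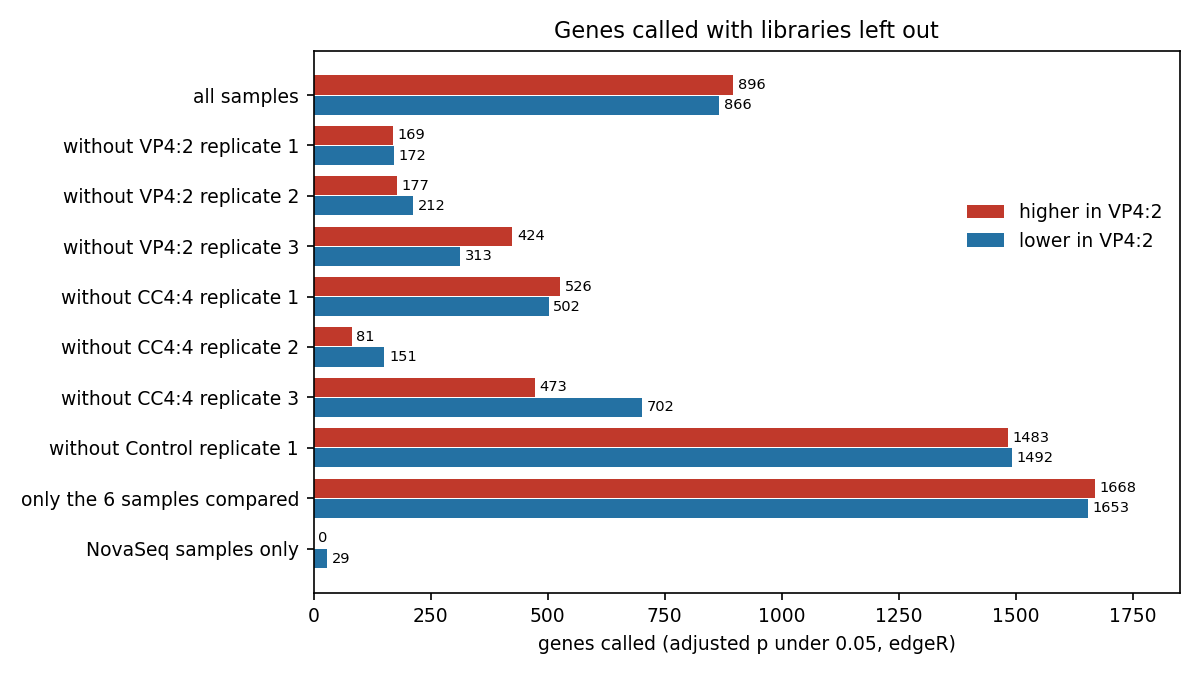
Bars give the number of genes called higher (red) or lower (blue) in VP4:2 at an edgeR adjusted p under 0.05, with all samples, with 1 library left out, with the 6 compared samples alone and with the NovaSeq samples alone. The total is smallest with the NovaSeq samples alone (0 higher and 29 lower), next without CC4:4 replicate 2 (81 and 151), and largest with the 6 samples alone (1668 and 1653).

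Most tested neutrophil genes were far lower in VP4:2. Of 8 tested genes of the 12 in the neutrophil list, 7 were lower and none higher, with a median log2 fold change of -4.32. The 4 others were under the filter on low counts. Over the 3 samples of a group, they had 0 counts in VP4:2 and 40 in CC4:4 (Ngp), 11 and 20 (Fpr2), 10 and 13 (Elane) and 11 and 10 (Ltf). The summed level of all 12 was 23 to 27.5 CPM in VP4:2 and 332 to 853 CPM in CC4:4. The receptor for granulocyte colony-stimulating factor, Csf3r (ENSRNOG00000008759), stood at 4.6, 4.94 and 4.44 CPM in VP4:2 and at 50.5, 116 and 49.6 CPM in CC4:4. The groups lay more than 10-fold apart at their nearest samples, and the log2 fold change was -3.95 ± 0.33 (SE; adjusted p = 0.00098, edgeR). S100a9, a subunit of the antimicrobial complex calprotectin, was at 5.04, 4.14 and 2.27 CPM against 134, 378 and 154 CPM (log2 fold change -5.86 ± 0.55, adjusted p = 0.0012). Its partner S100a8 (-5.58 ± 0.69, adjusted p = 0.003), the chemokine receptor Cxcr2 (-3.79 ± 0.45, 0.0027) and the iron-binding lipocalin Lcn2 (-4.51 ± 0.54, 0.0027) fell with it. These 5 genes kept their call without each of the 6 libraries. Camp, an antimicrobial peptide, fell by 4.13 ± 0.86 on the log2 scale (adjusted p = 0.017) and missed the threshold without VP4:2 replicate 2 (0.075) or CC4:4 replicate 2 (0.068). The formyl peptide receptor Fpr1 had 1 count in VP4:2 and 31 in CC4:4, a ratio of 37 (95% exact counting interval 6.16 to 1510), and kept its call (adjusted p = 0.03) without CC4:4 replicate 1 (0.033) or 3 (0.047) but not without VP4:2 replicate 1, 2 or 3 (0.11, 0.079 and 0.093) or CC4:4 replicate 2 (0.13). Mpo, the myeloperoxidase of primary granules, went the other way at 3.45, 7.79 and 7.84 CPM against 4.34, 0.813 and 1.85 CPM and did not pass the test (adjusted p = 0.2). Within the NovaSeq libraries the list's median was -4.34 with 3 genes called lower, and in the DNBSEQ pair it was -3.69.

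Of 23 tested cytokines and chemokines, 11 were lower in VP4:2 and none higher (median log2 fold change -1.47). The neutrophil-attracting chemokine Cxcl2 was at 1.15, 0.483 and 0.703 CPM in VP4:2 and at 61.2, 63.6 and 28 CPM in CC4:4 (-6.02 ± 0.56, adjusted p = 0.0012). Cxcl6 was at 7.13, 10 and 4.65 CPM against 185, 323 and 151 CPM (-4.91 ± 0.57, adjusted p = 0.0025), and Cxcl1 was at 0.932, 0.752 and 0.487 CPM against 13.2, 14.2 and 12 CPM (-4.17 ± 0.48, 0.0025). In all 3 chemokines, whose promoters are shown above, the lowest CC4:4 sample was over 10-fold above the highest VP4:2 sample. The pyrogenic cytokine Il1b was at 15.2, 12 and 15.8 CPM against 192, 303 and 127 CPM (-3.85 ± 0.41, adjusted p = 0.0018). Tnf (-1.47 ± 0.26, adjusted p = 0.011) and oncostatin M, Osm (-2.24 ± 0.4, 0.011), also fell. These 6 kept their call without each of the 6 libraries. Csf3, the growth factor of neutrophils, had 1 count in VP4:2 and 64 in CC4:4, a ratio of 76.3 (95% exact counting interval 13.2 to 3060; adjusted p = 0.012), with adjusted p of 0.053, 0.052 and 0.052 without VP4:2 replicate 1, VP4:2 replicate 2 or CC4:4 replicate 2. The monocyte chemokine Ccl2 stood at 49.8, 38.8 and 56.1 CPM against 57.1, 75.1 and 61.8 CPM and did not pass (adjusted p = 0.37). The macrophage growth factor Csf1 stood at 164, 145 and 156 CPM against 116, 80.2 and 106 CPM, without overlap but short of the threshold (adjusted p = 0.054). Between 6 (without CC4:4 replicate 2) and 11 (without CC4:4 replicate 3) genes of the list stayed lower with 1 library left out, and the NovaSeq median was -1.69 with 2 called, against -1.26 in the DNBSEQ pair.

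Receptors and effectors of the same signals differed among themselves. The decoy receptor Il1r2, which binds interleukin 1 without signalling, fell from 37.2, 114 and 38.2 CPM in CC4:4 to 3.62, 5.32 and 5.09 CPM in VP4:2 (-3.75 ± 0.48, adjusted p = 0.0035). The interleukin 33 receptor Il1rl1 rose, from 13, 14.1 and 18.7 CPM to 33.9, 36.9 and 29.2 CPM (1.13 ± 0.17, adjusted p = 0.0068). Both kept their call without each of the 6 libraries. Of the 12 interleukin 1 receptor and inflammasome genes 1 was higher and 3 were lower, beside 5.7% and 5.51% of all tested genes. Of 11 chemokine receptors, 6 were lower, among them the homing receptors Cxcr4 (-1.58 ± 0.18, adjusted p = 0.0025) and Ccr7 (-1.99 ± 0.29, 0.0064), which also kept their call in each case. Of 13 Toll-like receptor and adaptor genes, 3 were lower, beside 5.51% of all tested genes. They were led by the bacterial lipoprotein receptor Tlr2 at 57.2, 47.8 and 58.9 CPM against 104, 160 and 135 CPM (-1.28 ± 0.18, adjusted p = 0.0047), which kept its call likewise. Inducible nitric oxide synthase, Nos2, which is outside those lists and was named for its size, stood at 5.43, 8.86 and 3.03 CPM against 225, 355 and 81.7 CPM (-5.25 ± 0.77, adjusted p = 0.0064), and kept its call too. With 1 library left out, 3 chemokine receptors were called without VP4:2 replicate 1 or CC4:4 replicate 2, 4 without VP4:2 replicate 2 or 3 or CC4:4 replicate 1, and 5 without CC4:4 replicate 3; of the Toll-like receptor and adaptor genes, 2 were called without CC4:4 replicate 1 or 3 and 1 (Tlr2) without the others. The 3 falls among interleukin 1 receptor and inflammasome genes became 1 without VP4:2 replicate 1 or CC4:4 replicate 2 and 2 without the others.

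Among the 15 largest falls with a mean of at least 1 CPM, several other genes of myeloid cells appeared. Prokineticin 2, Prok2 (-6.35 ± 0.84, adjusted p = 0.0068), the inflammasome-family gene Nlrp12 (-6.35 ± 0.74, 0.0026) and the granule protein Pglyrp1 (-5.08 ± 0.73, 0.0058) kept their call without each of the 6 libraries. The cysteine protease inhibitor gene Stfa2l3 stood at 0.603, 0.752 and 0.487 CPM against 41.3, 58.5 and 22.9 CPM; it and Stfa2l2 belong to a family of close copies, as does Oas1k (-4.84 ± 0.57, adjusted p = 0.0027), and reads may have been divided between copies. Cdh10, a cadherin, had 1 count in VP4:2 and 302 in CC4:4, a ratio of 360 (95% exact counting interval 64.1 to 14300; adjusted p = 0.0022). The CC4:4 samples stood close together at 5.75, 6.03 and 7.86 CPM, and the call held without each library. Ccl19, the ligand of Ccr7, had the largest fitted fall (-8.39 ± 1.66, adjusted p = 0.014), but its CC4:4 samples ranged over 20.1, 132 and 1.03 CPM against 0.107 to 0.164 CPM in VP4:2, and the call was lost without VP4:2 replicate 1, 2 or 3 (adjusted p = 0.061, 0.064 and 0.052). Pdia2, a disulfide isomerase of secretory cells, had 1 count against 184 (ratio 219, interval 38.9 to 8710; adjusted p = 0.025) and kept its call only without CC4:4 replicate 1 (0.04) or CC4:4 replicate 3 (0.024), with 0.08 to 0.093 without each of the others.

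Lymphocyte genes were lower as well, with wide spread between the samples of a group. Of 14 B and plasma cell genes, 12 were lower and none higher (median -3.05), and their sum was 379 to 1270 CPM in VP4:2 against 2910 to 6400 CPM in CC4:4. The B cell receptor subunit Cd79a was at 9.92, 32.1 and 19.1 CPM against 135, 312 and 110 CPM (-3.19 ± 0.64, adjusted p = 0.015). Its groups did not overlap, but the adjusted p was 0.06 without VP4:2 replicate 1, 0.052 without VP4:2 replicate 3 and 0.066 without CC4:4 replicate 2. Over the list, the number called with 1 library left out was 0 without VP4:2 replicate 1 or CC4:4 replicate 2, 2 without VP4:2 replicate 2 or 3, 7 without CC4:4 replicate 1 and 11 without CC4:4 replicate 3; limma-voom called 6 with all samples. Counts assigned to the 8 immunoglobulin genes with a symbol made up 0.0725%, 0.882% and 0.453% of the VP4:2 libraries and 3.16%, 6.61% and 3.75% of the CC4:4 libraries. The difference of -4.04 percentage points had the smallest p that 3 against 3 samples allow (exact two-sided permutation test, p = 0.1). The NovaSeq median of the list was -3.47 and the DNBSEQ pair gave -1.84.

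Of 17 T and NK cell genes, 10 were lower and none higher (median -1.51), with sums of 152 to 180 CPM against 373 to 540 CPM. Cd3e, a chain of the T cell receptor complex, was at 10.2, 13.6 and 17.1 CPM against 51.2, 47.9 and 32 CPM (-1.68 ± 0.35, adjusted p = 0.018). Cd8a, the co-receptor of cytotoxic T cells, was at 11.3, 12.2 and 15.5 CPM against 64.5, 36.4 and 40.5 CPM (-1.86 ± 0.4, adjusted p = 0.019). Neither pair of groups overlapped, as was so for 1757 of the 1762 called genes. The 10 calls fell to 3 without VP4:2 replicate 3, to 6 without CC4:4 replicate 3 and to 0 without VP4:2 replicate 1 or 2 or CC4:4 replicate 1 or 2, where Cd3e had adjusted p of 0.073, 0.068, 0.052 and 0.076 and Cd8a 0.076, 0.075, 0.055 and 0.056. The NovaSeq median was -1.71 and the DNBSEQ pair gave -1.09.

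Of 19 tested macrophage genes, 1 was higher and none lower (median 0.29), near the 5.7% of all tested genes called higher, and their sum was 5640 to 7320 CPM in VP4:2 and 4140 to 5600 CPM in CC4:4; Marco had 0 counts in all 6 libraries. The lysosomal marker Cd68 stood at 221, 183 and 237 CPM against 217, 172 and 251 CPM, with overlapping groups (adjusted p = 0.99). The integrin chain Itgam stood at 224, 246 and 291 CPM against 187, 150 and 151 CPM and fell just short (adjusted p = 0.058). Lgals3, a galectin of phagocytes, was the gene called, at 869, 479 and 877 CPM against 287, 286 and 341 CPM (1.28 ± 0.27, adjusted p = 0.017), and missed the threshold without VP4:2 replicate 1 (0.067), VP4:2 replicate 3 (0.055) or CC4:4 replicate 2 (0.075). The NovaSeq median of the list was 0.42 and the DNBSEQ pair gave -0.03.

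Some genes of macrophage fusion and matrix breakdown were among the larger rises, while other members of their lists had negative fold changes. Dcstamp, a membrane protein needed for the fusion of osteoclasts and giant cells, was at 16.9, 28.3 and 39 CPM in VP4:2 and at 2.93, 3.32 and 2.8 CPM in CC4:4 (3.21 ± 0.6, adjusted p = 0.012). Its relative Ocstamp was at 8.28, 19.8 and 19.8 CPM against 2.82, 0.203 and 1.23 CPM (3.47 ± 0.68, adjusted p = 0.014), and the proton pump subunit Atp6v0d2 was at 42.5, 28.4 and 47.3 CPM against 10.6, 4.68 and 11.3 CPM (2.15 ± 0.52, 0.027). These were the 3 called of 10 tested giant cell and osteoclast-like genes, beside 5.7% of all tested genes called higher. The list median was 0.39 (NovaSeq 0.41, DNBSEQ pair 0.3). Of the 10, 6 had a positive fold change, and the values ran from -1.15 to 3.47. The collagen-degrading protease Ctsk stood at 684, 691 and 1040 CPM against 386, 334 and 464 CPM without passing (adjusted p = 0.16). Dcstamp lost its call without CC4:4 replicate 2 (0.059), Ocstamp without VP4:2 replicate 2 (0.052), and Atp6v0d2 without each of the 6 libraries (0.051 to 0.11). Macrophage elastase, Mmp12, was at 855, 994 and 1550 CPM against 158, 83.2 and 133 CPM (3.18 ± 0.64, adjusted p = 0.016) and lost its call without CC4:4 replicate 2 (0.075). Osteopontin, Spp1, was at 1740, 3960 and 5330 CPM against 620, 502 and 337 CPM (2.92 ± 0.81, adjusted p = 0.042), with 0.068 to 0.14 when any of the 6 libraries was left out.

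Of 18 matrix proteases and inhibitors, 2 were higher and 4 lower, beside 5.7% and 5.51% of all tested genes. Of the 18, 5 had a positive fold change (median -0.94, NovaSeq -0.73, DNBSEQ pair -0.95). The neutrophil collagenase Mmp8 was at 0.0548, 0.645 and 0.162 CPM against 13.4, 21.1 and 18.1 CPM (-5.89 ± 0.61, adjusted p = 0.0018) and kept its call without each of the 6 libraries. Collagenase 3, Mmp13, was at 45.9, 73.5 and 56 CPM against 378, 477 and 429 CPM (-2.87 ± 0.74, adjusted p = 0.033), without overlap, yet with adjusted p of 0.06 to 0.12 when any of the 6 libraries was left out. Stromelysin 1, Mmp3 (-1.76 ± 0.42, 0.026), and the urokinase receptor Plaur (-1.2 ± 0.29, 0.026) kept their calls only without CC4:4 replicate 3 (0.034 and 0.037). With each of the other libraries left out, Mmp3 had 0.051 to 0.098 and Plaur 0.063 to 0.11. Timp3, an inhibitor bound to the matrix, was at 145, 188 and 153 CPM against 106, 74.4 and 75 CPM (0.93 ± 0.19, 0.016), and lost its call without VP4:2 replicate 2 (0.066) or CC4:4 replicate 2 (0.08).

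Complement factor I, Cfi, the protease that inactivates C3b, had the smallest p among all named genes. It stood at 4.88, 5.1 and 4.06 CPM in VP4:2 and at 56.4, 52.2 and 35.2 CPM in CC4:4 (-3.35 ± 0.23, adjusted p = 0.00032). The membrane inhibitor Cd59 rose from 119, 92.7 and 135 CPM to 267, 252 and 293 CPM (1.23 ± 0.21, adjusted p = 0.011). Both kept their call without each of the 6 libraries. Of 12 complement genes, 2 were higher and 2 lower, beside 5.7% and 5.51% of all tested genes. With 1 library left out, 1 complement gene was higher in each case, and 2 were lower without CC4:4 replicate 1 or 3 and 1 without the others. Haem oxygenase 1, Hmox1, which degrades haem, was at 68, 60.6 and 78.4 CPM against 214, 218 and 225 CPM (-1.67 ± 0.21, adjusted p = 0.0031). The lipid carrier Apoe was at 4220, 3710 and 4060 CPM against 9880, 7680 and 11700 CPM (-1.29 ± 0.22, 0.01), and mesothelin, Msln, at 17, 11.8 and 11.3 CPM against 114, 129 and 185 CPM (-3.41 ± 0.31, 0.0012). These 3 did not overlap between the groups, as was so for 1757 of the 1762 called genes. Hmox1, Apoe and Msln kept their call in each case as well. Msln is a surface protein of mesothelial cells, counted here with the perineurial list, of whose 5 tested genes it was the 1 that fell while 2 rose; the 2 rises became 0 without any 1 of the 6 libraries and 1 with a platform term.

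**Figure D3:**
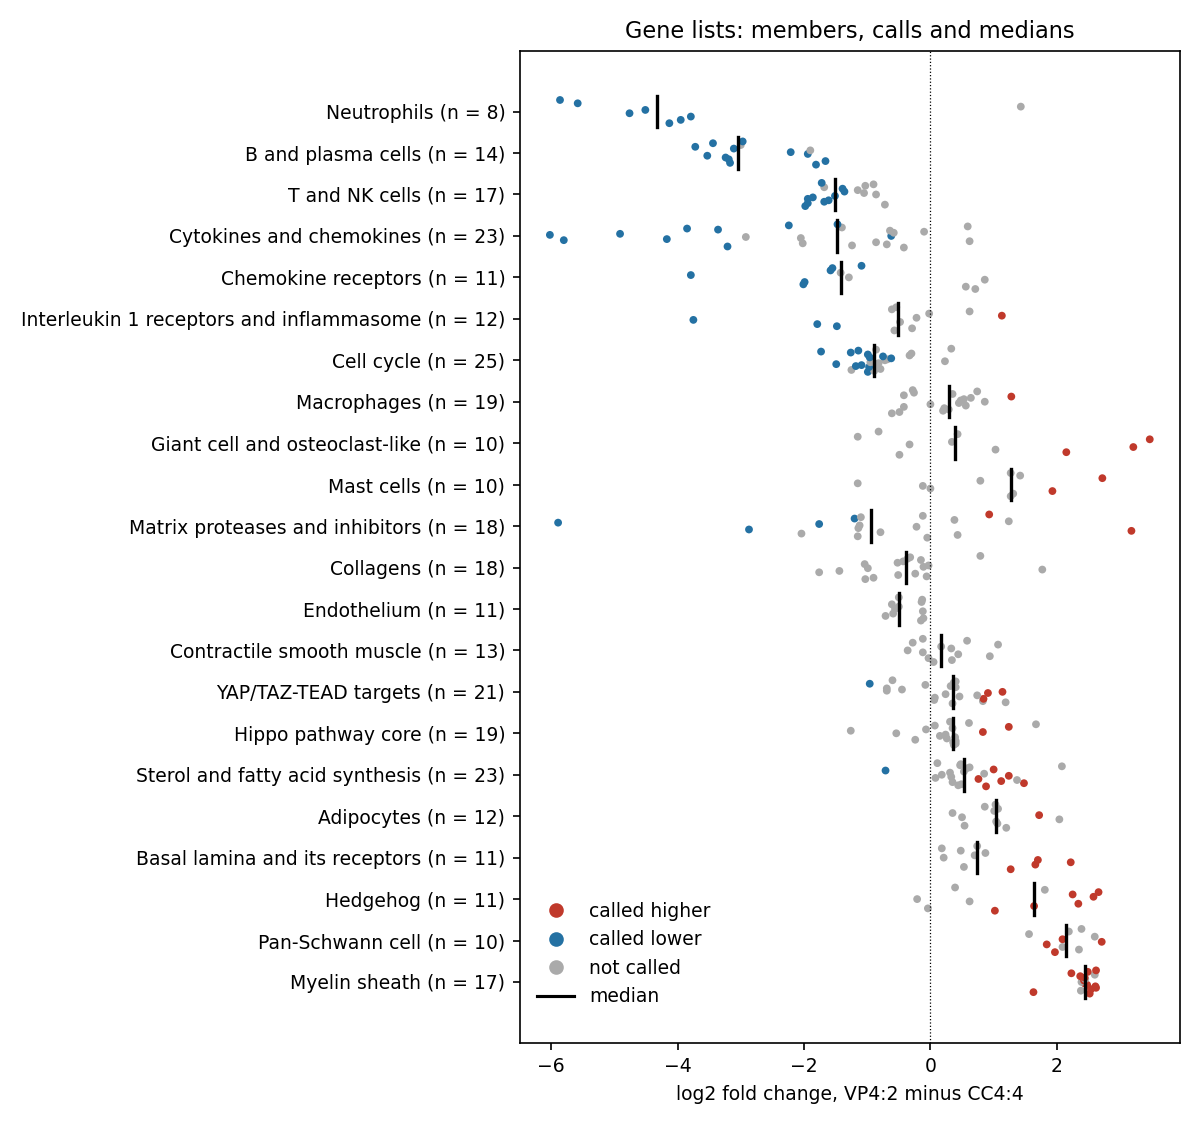
Each point is a tested member of a gene list, placed at its log2 fold change (VP4:2 minus CC4:4); red members are called higher, blue lower, grey not called (edgeR adjusted p under 0.05), and black bars are list medians. Neutrophil genes (median -4.32) lie furthest to the left and myelin genes (median 2.45) furthest to the right, with macrophage genes near 0 (median 0.29).

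Myelin genes were about 3 to 6 times as high in VP4:2 as in CC4:4. All 17 tested myelin genes had a positive log2 fold change (1.63 to 2.62, median 2.45), all 17 had no overlap between the groups (43.5% of all tested genes), and 13 passed the test. Their sum was 14300 to 21700 CPM in VP4:2 against 3110 to 3890 CPM in CC4:4. Pmp22, a protein of compact myelin, was at 2400, 2730 and 2030 CPM against 537, 493 and 502 CPM (2.23 ± 0.5, adjusted p = 0.021). Mag, of the inner myelin layer, was at 49.3, 62 and 28.8 CPM against 11.3, 6.3 and 8.14 CPM (2.44 ± 0.59, 0.027), and the enzyme Cnp at 430, 558 and 332 CPM against 163, 136 and 127 CPM (1.63 ± 0.4, 0.028). The calls depended on the libraries used: 3 of the list were called without VP4:2 replicate 3 (Pmp22 at 0.048, Mag at 0.046, Cnp at 0.048), 1 without CC4:4 replicate 1 (Pmp22 at 0.057, Mag at 0.056, Cnp at 0.061), and 0 without any 1 of VP4:2 replicates 1 and 2 and CC4:4 replicates 2 and 3, where Pmp22 had 0.059 to 0.092 and Mag and Cnp 0.076 to 0.12. With all samples, DESeq2 called 17, limma-voom 11 and the fit with a platform term 8, and NovaSeq samples alone gave 0. The edgeR fit called all 17 with only the 6 samples compared, and all 17 without Control replicate 1. The fold change itself was 2.58 at the median within NovaSeq and 2.15 in the DNBSEQ pair.

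Most listed regulators of myelination, 8 of 12, were called higher. Egr2, the main activator of myelin genes, was at 80.5, 81.1 and 78.6 CPM in VP4:2 and at 21.8, 14.2 and 20.2 CPM in CC4:4 (2.09 ± 0.38, adjusted p = 0.012). It lost its call without CC4:4 replicate 2 (0.062). None of the 12 was lower (median 1.59). Erbb2, a receptor chain for axonal neuregulin, was at 37.1, 49 and 27.3 CPM against 16.1, 10 and 12.6 CPM (1.55 ± 0.3, adjusted p = 0.014; 0.052 without VP4:2 replicate 2 and 0.068 without CC4:4 replicate 2). Sox10, the lineage factor of Schwann cells, was at 112, 133 and 63.6 CPM against 30.2, 12.8 and 15.7 CPM without passing (2.39 ± 0.74, adjusted p = 0.06). Pan-Schwann genes had a median of 2.14 with 4 of 10 higher and none lower, and sums of 1410 to 2120 CPM against 321 to 509 CPM, so that Schwann cell markers moved with the myelin genes; their part in the result was not tested. Without 1 of the 6 libraries, 0 to 5 regulators (lowest without CC4:4 replicate 2) and 0 to 2 pan-Schwann genes (2 without CC4:4 replicate 1, otherwise 0) were called. With only the 6 samples compared, 9 regulators and 10 pan-Schwann genes were called, as without Control replicate 1. The regulators' median was 1.7 within NovaSeq and 1.2 in the DNBSEQ pair, and that of the pan-Schwann genes 2.16 and 2.09.

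Hedgehog signalling passes from Schwann cells, which make Desert hedgehog (Dhh), to the perineurium and endoneurial fibroblasts. Of 11 tested Hedgehog genes, 6 were higher in VP4:2 and none lower (median 1.64; NovaSeq 1.54, DNBSEQ pair 1.39). The ligand Dhh was at 75.9, 90.2 and 47.9 CPM against 30.1, 20.2 and 18.2 CPM (1.64 ± 0.42, adjusted p = 0.033). The receptor and pathway target Ptch1 was at 245, 281 and 231 CPM against 59.5, 34.2 and 65 CPM (2.25 ± 0.5, 0.02), and the effector Gli1 at 21.5, 27 and 17.3 CPM against 5.93, 2.64 and 4.38 CPM (2.34 ± 0.57, 0.027). No sample of CC4:4 reached the lowest VP4:2 sample for these 3 genes, but 1757 of the 1762 called genes also had no overlap. The signal transducer Smo stood at 40, 47.7 and 32.1 CPM against 30, 26.4 and 35.4 CPM, with overlap (adjusted p = 0.36). No Hedgehog gene was called without VP4:2 replicate 1 or 2 or CC4:4 replicate 2 (Ptch1 0.06, 0.066 and 0.094); 3 were called without VP4:2 replicate 3 or CC4:4 replicate 3 and 2 without CC4:4 replicate 1 (Ptch1 0.052). Dhh stayed under the threshold only without VP4:2 replicate 3 (0.047) and ran from 0.05 to 0.13 without the others, and Gli1 was at 0.052 to 0.12 when any of the 6 was left out.

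Of 23 sterol and fatty acid synthesis genes, 6 were higher and 1 lower (median 0.53; NovaSeq 0.61, DNBSEQ pair 0.62), and 22 had a positive fold change. Of the 12 adipocyte markers, all had a positive fold change and 1 was called (median 1.03; NovaSeq 0.38, DNBSEQ pair 2.49), none was at 0 in all 6 libraries, and their sums of 2390 to 5130 CPM in VP4:2 and 630 to 2660 CPM in CC4:4 overlapped. Their part in the result was not tested. Hmgcs1, which makes the precursor of mevalonate, was at 131, 147 and 142 CPM against 59.6, 57.1 and 61.6 CPM (1.24 ± 0.2, adjusted p = 0.0089) and kept its call without each of the 6 libraries. Lss, which cyclises the sterol precursor, was the exception at 25.3, 19.2 and 22.8 CPM against 39, 39.9 and 31.4 CPM (-0.71 ± 0.2, 0.047), with 0.058 to 0.17 when any library was left out, and it was not called with RLE size factors, limma-voom or a platform term. The 6 rises became 1 without VP4:2 replicate 1 or 2 or CC4:4 replicate 2, 3 without VP4:2 replicate 3 or CC4:4 replicate 1, and 5 without CC4:4 replicate 3. Of 11 basal lamina genes, 4 were higher and none lower, beside 5.7% and 5.51% of all tested genes (median 0.74, NovaSeq 0.9, DNBSEQ pair 0.36). The laminin receptor chain Itga6 was at 469, 529 and 435 CPM against 161, 120 and 171 CPM (1.66 ± 0.3, adjusted p = 0.012; 0.059 without CC4:4 replicate 2). Dystroglycan, Dag1, was at 564, 734 and 497 CPM against 298, 201 and 243 CPM (1.27 ± 0.26, 0.016) and lost its call without VP4:2 replicate 1 or 2 or CC4:4 replicate 2 (0.052, 0.063 and 0.075). Of the 4 basal lamina calls, 0 were left without CC4:4 replicate 2, 1 without VP4:2 replicate 1 or 2, 2 without CC4:4 replicate 3, and 3 without VP4:2 replicate 3 or CC4:4 replicate 1.

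**Figure D4:**
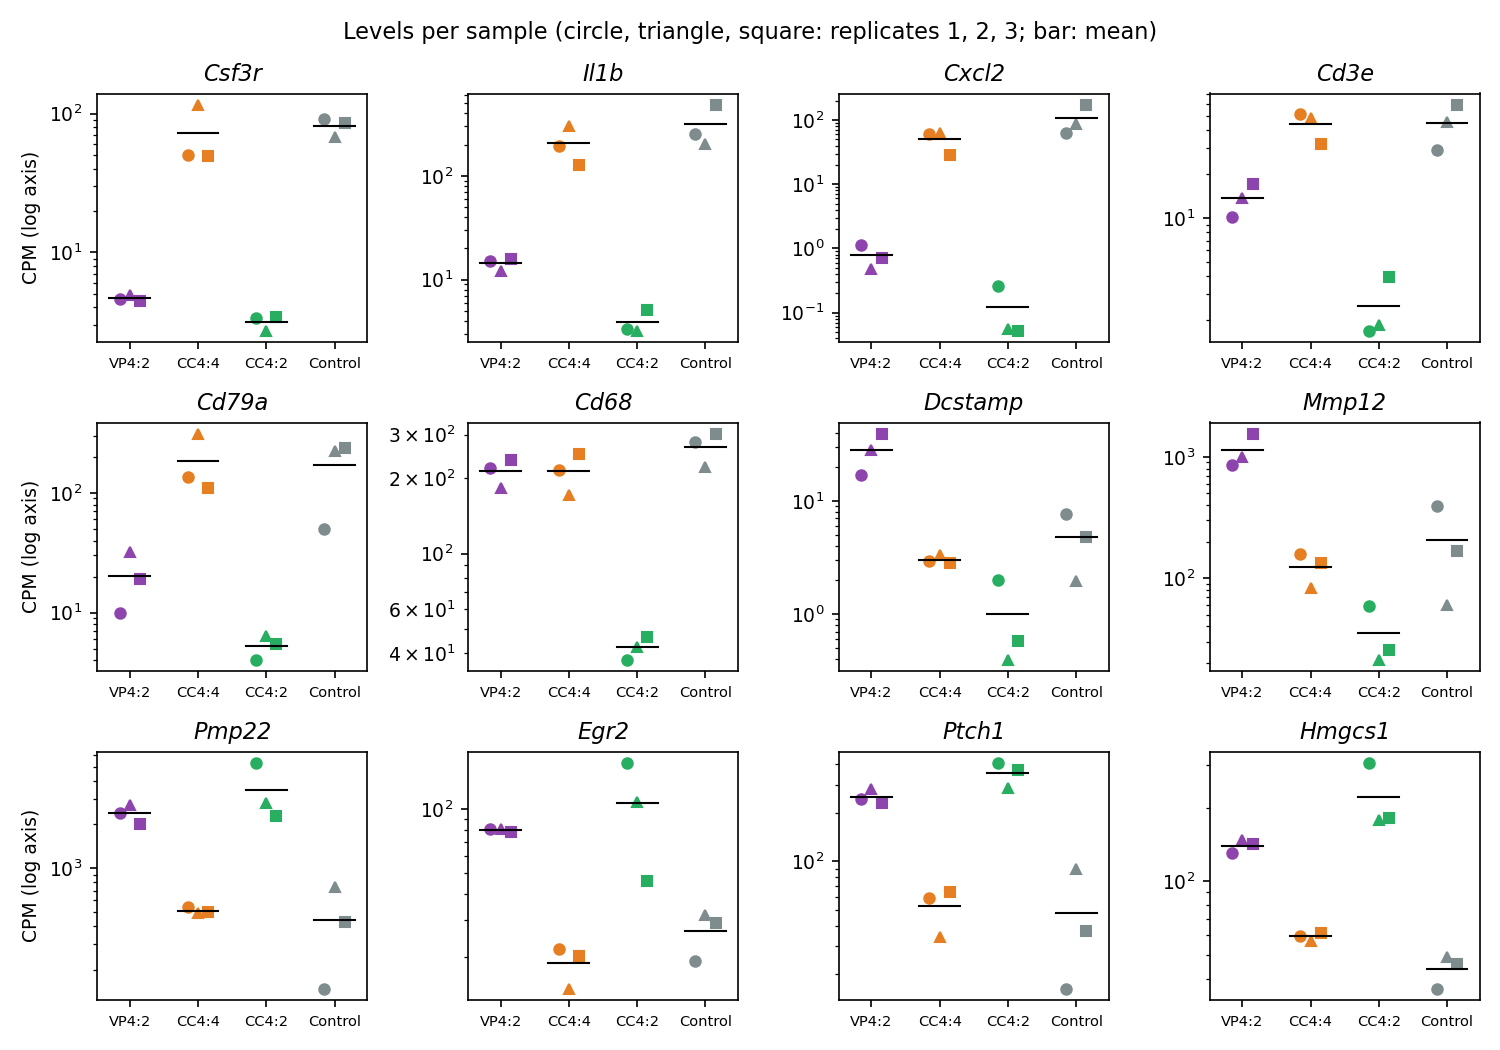
CPM on a log axis in every sample of the 4 groups for 12 genes; circles, triangles and squares are replicates 1, 2 and 3, and bars are group means. Csf3r, Il1b and Cxcl2 are lower, and Dcstamp, Mmp12, Pmp22, Egr2, Ptch1 and Hmgcs1 higher, in all 3 VP4:2 samples than in any CC4:4 sample, while Cd68 overlaps between those groups.

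YAP and TAZ transcripts did not pass the test. Yap1 (ENSRNOG00000005933) stood at 161, 152 and 144 CPM in VP4:2 and at 124, 109 and 135 CPM in CC4:4 (0.31 ± 0.2, adjusted p = 0.34). Wwtr1 stood at 158, 156 and 144 CPM against 102, 92.6 and 105 CPM (0.61 ± 0.24, adjusted p = 0.12). The VP4:2 samples were above the CC4:4 samples for both genes. Of 19 Hippo pathway genes, 2 were higher and none lower, beside 5.7% and 5.51% of all tested genes. The list median was 0.35 (NovaSeq 0.41, DNBSEQ pair 0.04). Vgll3, a cofactor that binds TEAD, was at 56.2, 58 and 45.6 CPM against 24.4, 22.2 and 21.1 CPM (1.24 ± 0.16, adjusted p = 0.0039) and kept its call without each of the 6 libraries. Tead1 was at 20.2, 23 and 15.9 CPM against 10.9, 10.9 and 11.3 CPM (0.83 ± 0.17, 0.015) and lost its call without VP4:2 replicate 1 or 2 or CC4:4 replicate 2 (0.058, 0.063 and 0.062).

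The listed YAP/TAZ-TEAD targets did not all move one way. Of 21 tested, 3 were higher and 1 lower, beside 11.2% of all tested genes called in either direction. Of the 21, 15 had a positive fold change (median 0.35, NovaSeq 0.47, DNBSEQ pair 0.02). The sum over all 22 listed was 2500 to 2780 CPM in VP4:2 against 1860 to 2390 CPM in CC4:4. Ccn2, which carries 3 TEAD cores in the promoter shown, stood at 456, 247 and 182 CPM against 176, 179 and 178 CPM (0.74 ± 0.46, adjusted p = 0.33), with VP4:2 replicate 1 far above the rest. Ccn1 stood at 225, 52.5 and 102 CPM against 77.9, 110 and 87.8 CPM (0.46 ± 0.53, 0.62), and its fold change was -0.24 without VP4:2 replicate 1. Ankrd1 stood at 7.02, 6.5 and 1.24 CPM against 1.17, 4.07 and 1.23 CPM (1.19 ± 1.02, 0.49), with overlapping groups. Tissue factor, F3, was at 88.1, 81.9 and 115 CPM against 57.4, 34.5 and 37.9 CPM (1.14 ± 0.21, 0.012), and lost its call without CC4:4 replicate 2 (0.062). The receptor tyrosine kinase Axl was at 318, 368 and 335 CPM against 205, 146 and 219 CPM (0.84 ± 0.17, 0.016), with 0.052, 0.064 and 0.063 without VP4:2 replicate 1 or 2 or CC4:4 replicate 2. The kinase Nuak2 was at 11.7, 12.5 and 9.47 CPM against 18.5, 26 and 21.1 CPM (-0.96 ± 0.17, 0.011) and kept its call in each case. The guanine nucleotide exchange factor Dock5 was the third riser (0.91 ± 0.23, 0.032), with 0.065 to 0.13 when any library was left out.

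Of 25 cell cycle genes, 12 were lower and none higher (median -0.89; NovaSeq -1.16, DNBSEQ pair -0.35), with sums of 418 to 481 CPM against 573 to 973 CPM. Rrm2, the ribonucleotide reductase subunit made in S phase, was at 16.3, 14.1 and 16.9 CPM against 52, 67.6 and 37.5 CPM (-1.73 ± 0.28, adjusted p = 0.0089) and kept its call without each of the 6 libraries. The mitotic kinase Plk1 was at 4.93, 4.94 and 4.17 CPM against 10.7, 14.4 and 8.55 CPM (-1.26 ± 0.28, 0.022), with 0.071, 0.072, 0.072 and 0.094 without VP4:2 replicate 1, 2 or 3 or CC4:4 replicate 2. Rrm2 was the 1 gene of the list called without VP4:2 replicate 1, 2 or 3 or CC4:4 replicate 2; 6 were called without CC4:4 replicate 1 and 15 without CC4:4 replicate 3.

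Of 18 collagen genes, none passed the edgeR test (1 higher and 2 lower at an unadjusted p under 0.05). DESeq2 called 1 higher and 2 lower, and limma-voom 0. With only the 6 samples compared, edgeR called 1 higher and 4 lower, and without Control replicate 1 it called 1 and 2. The median was -0.39 (NovaSeq -0.19, DNBSEQ pair -0.87), and 2 of the 18 had a positive fold change. The fibrillar collagen chain Col1a1 did not overlap between the groups and stood at 8430, 9430 and 6010 CPM in VP4:2 and at 24400, 23400 and 33100 CPM in CC4:4 (-1.76 ± 0.61, adjusted p = 0.084). The 18 genes together made up 26200 to 36400 CPM against 58200 to 88200 CPM. Contractile smooth muscle and endothelial genes had no call in the main fit either. The smooth muscle median was 0.17, but 0.48 within NovaSeq and -0.77 in the DNBSEQ pair. Their sums were 1680 to 4650 CPM in VP4:2 and 2600 to 2700 CPM in CC4:4. The endothelial median was -0.5 (NovaSeq -0.35, DNBSEQ pair -0.62), and none of the 11 genes had a positive fold change. With only the 6 samples compared, 1 smooth muscle gene was called higher and 2 endothelial genes lower.

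Apart from Ocstamp and Dcstamp, the 15 largest rises were genes at low levels. Pcdh8, a protocadherin of neurons, was at 3.78, 6.61 and 8.22 CPM against 0.411, 0.0678 and 0.137 CPM (4.83 ± 0.67, adjusted p = 0.0048). The phosphatase-related membrane protein Plppr4 (4.4 ± 0.69, 0.0075) and the pigment cell receptor Gpr143 (3.24 ± 0.52, 0.008) also rose, and these 3 kept their call without each of the 6 libraries. Ndrg1, mutated in an inherited demyelinating neuropathy, was at 941, 1090 and 859 CPM against 334, 264 and 288 CPM (1.71 ± 0.28, 0.0089), and the mitophagy receptor Bnip3 at 70.3, 81.4 and 89.8 CPM against 49.5, 41.9 and 35.6 CPM (0.93 ± 0.14, 0.0068). Both are counted with 15 hypoxia and glycolysis genes, of which 3 were higher and none lower (median 0.1), beside 5.7% of all tested genes called higher. Both kept their call in each case.

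The unloaded 4:2 conduit gave a second reference. VP4:2 minus CC4:2 shares the VP4:2 libraries, and CC4:2 minus CC4:4 the CC4:4 libraries, with the main comparison, so the values are given side by side only. The median of the myelin list was -0.61 in VP4:2 minus CC4:2 and 3.05 in CC4:2 minus CC4:4; that of the Hedgehog list was -0.83 and 2.34. For neutrophil genes the 2 values were 0.17 and -4.41. For macrophage genes they were 1.46 and -1.35, for T and NK cell genes 1.34 and -2.78, for cytokines 1.89 and -3.46, and for B and plasma cell genes 2.16 and -5.22. Cd68 was at 37.5, 42.2 and 46.5 CPM in CC4:2, below each VP4:2 and CC4:4 sample (VP4:2 minus CC4:2 2.35, adjusted p = 0.00013; CC4:2 minus CC4:4 -2.34, 4.2e-05).

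Dcstamp was at 2.01, 0.395 and 0.574 CPM in CC4:2, below both other groups, with a log2 fold change of 4.8 for VP4:2 minus CC4:2 (adjusted p = 0.0016) and -1.59 for CC4:2 minus CC4:4 (0.062). Mmp12 was at 58.8, 21.2 and 25.5 CPM in CC4:2 (5.01, adjusted p = 0.0019, and -1.83, 0.036). Csf3r was at 3.34, 2.71 and 3.39 CPM in CC4:2, against 4.44 to 4.94 CPM in VP4:2 (0.57, adjusted p = 0.32, and -4.51, 3.3e-05). Pmp22 was at 5310, 2820 and 2300 CPM in CC4:2, where it overlapped with VP4:2 (-0.54, adjusted p = 0.54, and 2.77, 0.0021). A p that misses the threshold does not show that VP4:2 and CC4:2 were alike.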

How the data were processed

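Poly(A)-selected stranded libraries were read as pairs of 150 bases; replicates 1 and 2 of each group on NovaSeq X Plus and replicate 3 on DNBSEQ-T7, per the labels. Every deposited table holds the same expected counts per gene for all 12 samples (9.58% to 10.44% of values in the 6 compared samples are not whole), rounded here to whole numbers. The submitters' processing notes name HISAT2, StringTie, RSEM and DESeq2; their roles, versions, the genome build and the annotation are not given in the sources used here. Of the genes, 4367 have no symbol and 4911 no unique one.

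Counts of all 12 samples were fitted with edgeR 4.0.16 (R 4.3.3; filterByExpr, TMM scaling, quasi-likelihood test, a term per group, 8 residual degrees of freedom) and adjusted by Benjamini-Hochberg over 15712 genes. Standard errors come from the log2 fold change over the root of the F statistic. The fit was also run on counts simulated from its own estimates of spread, without a platform difference. That run cannot show how the fit behaves with such a difference, and its outcome is not reported here. Replicates differed by a chi-square of 47.3 to 104 per degree of freedom, so no pair of a group agreed within counting noise. The 51 lists hold 698 genes, of which 27 were under the filter and 18 lacked a unique name. Genes were named if they were among the 15 largest rises or falls at a mean of at least 1 CPM without overlap, or among up to 4 members with the smallest p in a list with at least 2 calls, together with Yap1, Wwtr1, Ccn1, Ccn2 and Ankrd1; some other list members were named after their values were seen, and a few genes the rule chose are not reported here. Members and lists were chosen with earlier results of these data known. Alternatives were DESeq2 1.42.0, limma-voom (limma 3.58.1), RLE scaling, other filters, fewer samples, a replicate block, a platform term and removal of immunoglobulin genes. Counting intervals are exact and cover counting error only.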

Additional observations from a re-analysis of the deposited data

How the results depend on the processing

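The count of 1762 called genes (896 higher, 866 lower) was within 1.5 times under RLE size factors, either other filter, limma-voom, a platform term and removal of immunoglobulin genes (1580 to 1805). It moved to 3083 (1569 higher, 1514 lower) with DESeq2, to 3321 (1668 and 1653) with only the 6 samples compared, to 2975 (1483 and 1492) without Control replicate 1, to 29 (0 and 29) with NovaSeq samples only, and to 1122 (565 and 557) at a change of at least 2-fold. Leaving out 1 of the 6 libraries gave 232 to 1175 called, 81 to 526 higher and 151 to 702 lower. The immunoglobulin difference ran from -4.71 to -2.99 percentage points in those cases. Of the 51 list medians, 37 kept their side of 0 under every alternative, and 14 of the 1762 genes were called under every one. Of the named genes, Cd68 (0.00) lay at 0 with RLE size factors and with DESeq2 (0 in both) and ran from -0.13 to 0.12 with 1 library left out (-0.02, -0.07 and -0.13 without VP4:2 replicate 1, VP4:2 replicate 3 or CC4:4 replicate 2); Ccn1 ran from -0.24 to 0.83, the lowest without VP4:2 replicate 1. The cause was not tested.

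Groups share replicate numbers, but the labels do not tie them to animals or days. Deviations of same-numbered samples from their group means correlated at 0.03, 0.13 and 0.21 for replicates 1, 2 and 3. VP4:2 replicates 2 and 3 correlated best with the CC4:4 sample of their own number, and VP4:2 replicate 1 with CC4:4 replicate 2 (0.05). These correlations were low, and the numbers were not taken to pair samples in the main fit. Replicate 3 was read on DNBSEQ-T7 in every group, so the number also carries the platform. With the replicate block, 1443 genes were called (681 higher, 762 lower), 1325 of them shared with the fit without it, and 3 myelin genes (13 without the block), 0 higher and 1 lower mast cell genes (2 and 0 without it) and 0 higher perineurial genes (2 without it) were called.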

Other observations

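Of 17 tested pain mediators and channels, 1 was higher and 1 lower in VP4:2 (median -0.08), near the 11.2% of all tested genes called in either direction. Cyclooxygenase 2, Ptgs2, which makes prostaglandins, was at 4.44, 4.4 and 5.36 CPM against 17.8, 19 and 9.44 CPM (edgeR log2 fold change -1.7 ± 0.36, adjusted p = 0.018), and lost its call without VP4:2 replicate 1 or 2 (0.071, 0.072) or CC4:4 replicate 1 or 2 (0.05 as rounded, 0.081). The ATP-gated channel P2rx7 was at 41.3, 42.9 and 33.5 CPM against 13.1, 6.03 and 9.44 CPM (2.04 ± 0.59, 0.049), with 0.075 to 0.19 when any of the 6 libraries was left out. Of 12 tested neurotrophic factors and receptors, 1 was higher, beside 5.7% of all tested genes, while 10 had a positive fold change (median 0.83). The sum over all 15 listed was 261 to 344 CPM in VP4:2 against 85.1 to 144 CPM in CC4:4. DESeq2 called 4 higher and limma-voom 3, and edgeR with only the 6 samples compared called 5 higher and 1 lower. NovaSeq samples alone gave 0. The gene called in the main fit was the neurturin receptor Gfra2, at 68.5, 72.7 and 54.6 CPM against 23.3, 11.2 and 21.1 CPM (1.82 ± 0.42, 0.023). It lost its call without VP4:2 replicate 1 or 2 or CC4:4 replicate 2 (0.07, 0.074 and 0.093).

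The injury factor Atf3, induced in damaged neurons and Schwann cells, was at 91.7, 65.4 and 87.5 CPM against 32.4, 21.6 and 23.7 CPM (1.65 ± 0.29, edgeR adjusted p = 0.011) and lost its call without CC4:4 replicate 2 (0.054). It was the 1 repair Schwann cell gene called of 11 tested (median 0.59), beside 5.7% of all tested genes called higher. Of 10 mast cell genes, 2 were higher and none lower (median 1.27), beside 5.7% and 5.51% of all tested genes. Both were subunits of the IgE receptor: Ms4a2 at 3.12, 4.51 and 3.52 CPM against 0.645, 0.271 and 0.752 CPM (2.72 ± 0.75, 0.042) and Fcer1a at 1.92, 1.72 and 2.11 CPM against 0.469, 0.203 and 0.821 CPM (1.93 ± 0.52, 0.038). Ms4a2 had an adjusted p of 0.08 to 0.16 when any of the 6 libraries was left out, and Fcer1a passed only without CC4:4 replicate 3 (0.037; otherwise 0.091 to 0.13). With a platform term 1 mast cell gene was higher and 1 lower, and with at least 10 counts asked of all 12 samples 0 were called. Of 14 antigen presentation genes, 3 were lower, beside 5.51% of all tested genes. They were led by the immunoproteasome subunit Psmb8 at 66.3, 55.5 and 69.2 CPM against 126, 142 and 114 CPM (-1 ± 0.17, 0.011, and 0.057 without CC4:4 replicate 2). These 3 calls became 0 without CC4:4 replicate 2, 1 without VP4:2 replicate 1 or 2, and 2 without VP4:2 replicate 3 or CC4:4 replicate 1.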
